A study of Homo sapiens with 6 samples.

Results

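The clustered protocadherin genes were followed in RNA sequencing of the human embryonic stem cell line H1. They were chosen by symbol alone, as the alpha, beta and gamma genes of the tandem arrays on chromosome 5, with pseudogenes kept and marked. GENCODE release 29 (GRCh38) lists 59 such genes and the count table holds 50 of them, among 16199 genes in all. Of the 50, 14 are alpha, 14 beta and 22 gamma genes, and 3 are pseudogenes (PCDHB17P, PCDHB18P and PCDHGB8P). PCDHA8, PCDHA14, PCDHB1, PCDHB7, PCDHB8, PCDHB11, PCDHB19P, PCDHGA3 and PCDHGB9P have no row and were not analysed here. The alpha array spans bases 140786136 to 141012347, the beta array 141051135 to 141249365 and the gamma array 141330571 to 141512981.

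The study compared 3 genotypes with 2 libraries each: cells homozygous for Dicer-S1344L, cells hemizygous for it, and wild-type cells. S1344L is a cancer-associated substitution in the RNase IIIa domain of the microRNA-processing enzyme DICER1, and it was made by CRISPR-Cas9 editing. All libraries came from the same parental line, with no treatment named. The hemizygous samples are coded pmfs and the homozygous ones pmpm, but the labels do not spell out the second allele of the hemizygous cells. The labels do not say whether libraries that share a genotype came from separate clones or cultures, or how many edited clones were taken. The spread between libraries, on which every test rests, may therefore be technical, and a difference between genotypes cannot be told apart from a difference between clones.

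Clustered protocadherins are cadherin-like cell adhesion proteins best known from the nervous system, where each neuron uses its own combination of them as a surface identity and where they act in self-avoidance of dendrites and axons. Each alpha and gamma variable exon has its own promoter and is spliced to constant exons shared by the whole array, whereas each beta gene is a single exon with no shared part. Promoter choice among the variable exons is stochastic in single cells and depends on CTCF and cohesin and on DNA methylation of the promoter. The C-type genes at the end of the alpha and gamma arrays are used more uniformly in neurons.

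The 6 libraries held 38164848 to 52924532 counts, of which the 50 genes took 0.0255% to 0.0337% (10070 to 16206 counts per library). Single genes had 15 to 2417 counts in a library, so counting error is large for the lowest of them. Levels are in CPM, the usual depth-scaled read count, with library sizes adjusted by the TMM method, and a pair of values stands for libraries 1 and 2 of a genotype. The stem cell factors POU5F1, SOX2 and NANOG were present in all libraries, at 107.2 and 129.0 CPM for POU5F1 in homozygous, 84.4 and 128.5 in hemizygous and 87.9 and 88.00 in wild-type cells. PAX6 and SOX1 of neural ectoderm and SOX17, FOXA2, GATA6 and GATA4 of endoderm have no row in the table. L1TD1, an RNA-binding protein of pluripotent cells, was at 1041 and 824.8 CPM in homozygous, 997.3 and 859.7 in hemizygous and 805.6 and 724.1 in wild-type cells. DICER1 itself stood at 128.9 and 117.9 CPM in homozygous, 118.4 and 96.4 in hemizygous and 169.4 and 126.1 in wild-type cells.

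The promoters of these genes show how alike the members of an array are, and are given for the genes on which the results below turn. RefSeq promoter windows (GRCh38.p14, 250 bases before to 50 after the start site) were found for 42 of the 50 genes, and PCDHA3, PCDHA13, PCDHB6, PCDHB17P, PCDHB18P, PCDHGB8P, PCDHGA12 and PCDHGC5 had none. The letters CGCT, on either strand, occurred in 41 of the 42 windows (97.6%), PCDHA9 being without, against 71.9% of 27305 promoter windows of all genes. The TATA-box letters TATAAA, on either strand, occurred in 6 of 42 (14.3%), against 14.0% of all windows. Each array also had a most frequent word of 8 letters upstream of the start site on the gene's own strand. It was ATGTCGCT in 8 of 12 alpha windows and 0.139% of all windows, GGTGGCGC in 11 of 11 beta windows and 1.27% of all, and GCCGCTGT in 11 of 19 gamma windows and 0.806% of all. With 1 mismatch allowed the words were found in 10 alpha, 11 beta and 19 gamma windows. The share of all windows that hold them with 1 mismatch was not counted. The alpha and gamma words contain CGCT, and the beta word ends in CGC, followed by T in every beta stretch shown, so the searches overlap. The words were taken from the same promoters in which they are counted, and a match is a description and not a binding site. In the stretches below, all on the plus strand and from the RefSeq promoter table, capitals mark the array's word or its nearest match with 1 mismatch.
PCDHA6, chr5:140827893-140827932: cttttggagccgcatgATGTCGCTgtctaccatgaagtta
PCDHA10, chr5:140855837-140855876: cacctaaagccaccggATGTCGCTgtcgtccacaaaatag
PCDHA11, chr5:140868879-140868918: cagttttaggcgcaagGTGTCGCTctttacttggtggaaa
PCDHB2, chr5:141094539-141094578: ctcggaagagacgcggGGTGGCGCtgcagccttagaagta
PCDHB5, chr5:141135174-141135205: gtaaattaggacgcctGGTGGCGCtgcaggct
PCDHB16, chr5:141182305-141182344: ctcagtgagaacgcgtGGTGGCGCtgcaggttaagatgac
PCDHB10, chr5:141192294-141192333: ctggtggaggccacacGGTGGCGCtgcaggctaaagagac
PCDHGA5, chr5:141364105-141364144: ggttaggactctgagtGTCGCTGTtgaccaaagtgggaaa
PCDHGB3, chr5:141370160-141370199: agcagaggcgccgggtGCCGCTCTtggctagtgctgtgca
PCDHGA6, chr5:141373833-141373872: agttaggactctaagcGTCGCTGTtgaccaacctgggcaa
PCDHGC3, chr5:141475878-141475917: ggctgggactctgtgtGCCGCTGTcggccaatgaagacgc
The word began 16 to 84 bases before the start site in the beta array, 42 to 85 in the alpha array and 42 to 97 in the gamma array.

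All 3 arrays were transcribed in the stem cells, and a few beta genes had the highest levels per base. Per kilobase of exon that no other gene covers, the mean over the 6 libraries was highest for PCDHB5 (14.5 CPM per kb), followed by PCDHB2 (7.66), PCDHB3 (5.54), the C-type gene PCDHGC3 (4.87) and PCDHB15 (4.44). The highest alpha gene on this scale was PCDHAC2, also C-type (3.24). By median the order was another one, with 1.34 CPM per kb over the 14 alpha, 0.717 over the 14 beta and 0.813 over the 22 gamma genes. The lowest genes were PCDHA9 (0.133), PCDHGA2 (0.164) and PCDHB9 (0.188). The sources used here do not say how reads on shared constant exons were counted, and the exon length that no other gene covers differs between genes, from 2011 to 10574 bases, so the order between arrays is approximate. Of the 50 genes, 46 were above 0.5 CPM in every library. The exceptions were PCDHB6 in hemizygous library 1, PCDHB9 in homozygous library 2, and PCDHB17P and PCDHGA2 in both wild-type libraries.

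**Figure D1:**
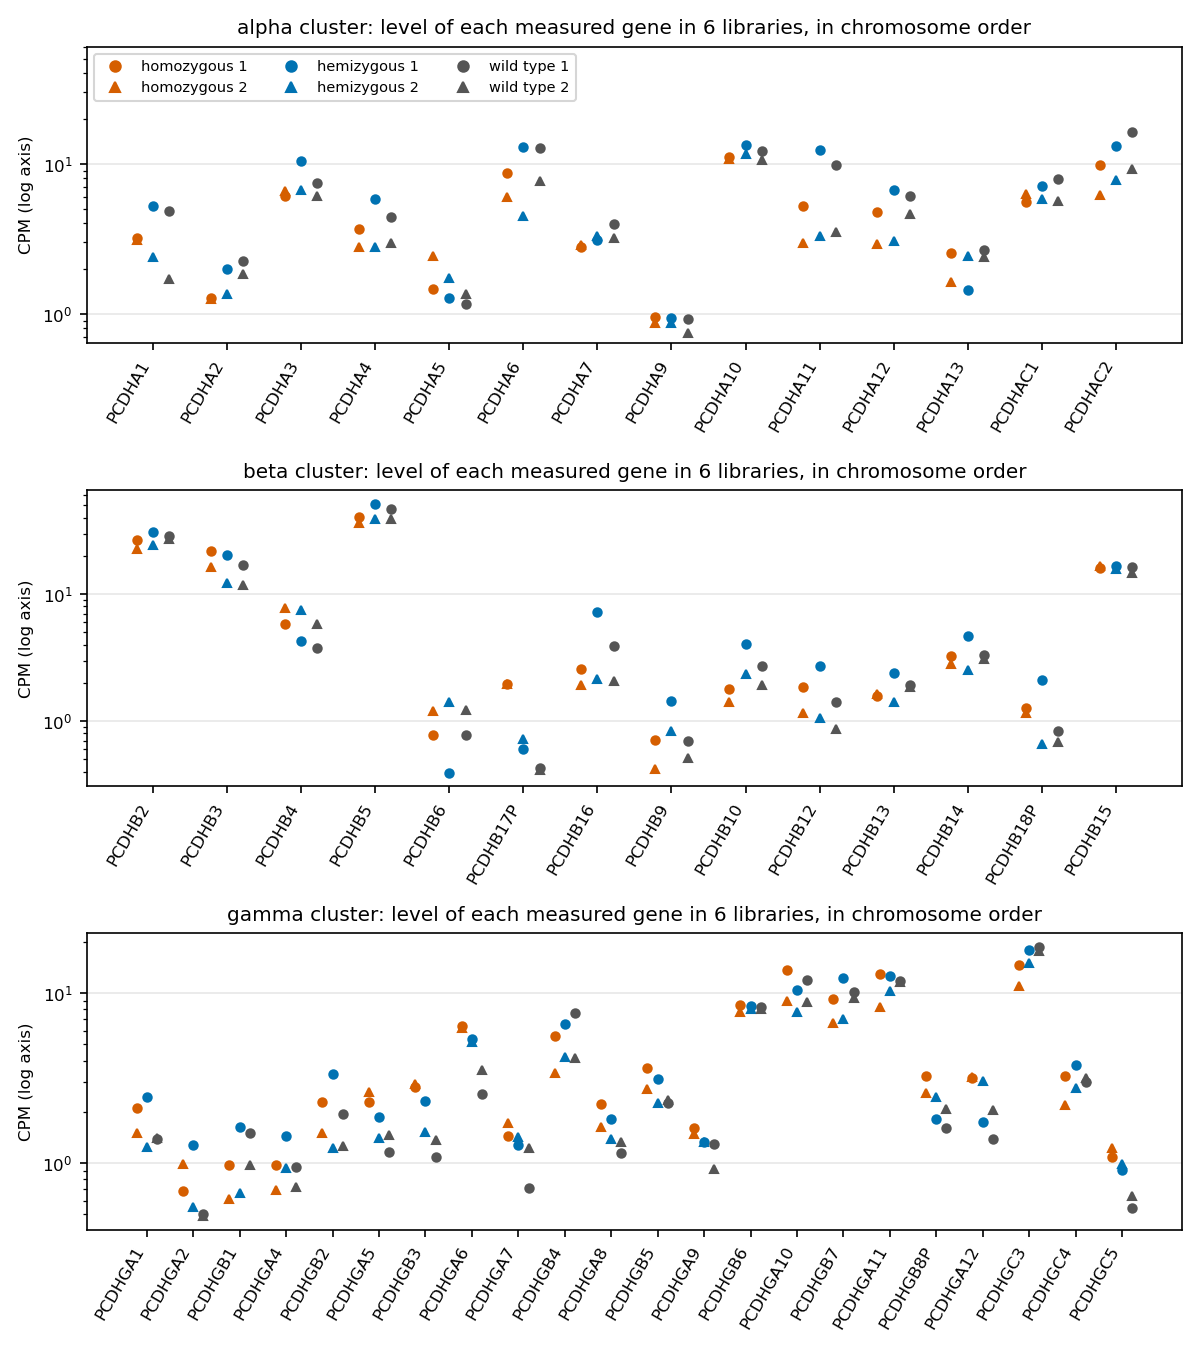
Level of each of the 50 measured genes in CPM on a log axis, in chromosome order, with 1 point per library (circles library 1, triangles library 2). Alpha genes such as PCDHA11 and PCDHA6 separate by library number, while PCDHB17P lies at 1.96 and 1.94 CPM in the homozygous libraries and at 0.721 CPM or less in the other 4.

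The alpha array was spread over many genes. PCDHA10, a variable alpha gene that held 13.2% to 20.1% of alpha counts, was at 11.1 and 10.8 CPM in homozygous, 13.3 and 11.6 in hemizygous and 12.2 and 10.6 in wild-type libraries, which span 1.25-fold, the least in the array. PCDHAC2, which in mice keeps axons of serotonin neurons apart, was at 9.74 and 6.15 CPM in homozygous, 13.1 and 7.76 in hemizygous and 16.2 and 9.24 in wild-type libraries. Library 1 was above library 2 in each genotype and the genotypes overlapped, but among libraries of the same number homozygous was lowest and wild type highest both times. PCDHAC1, the other alpha C-type gene, had 5.57 and 6.28 CPM in homozygous, 7.12 and 5.85 in hemizygous and 7.91 and 5.63 in wild-type libraries, again overlapping.

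Among alpha genes, PCDHA11, PCDHA1 and PCDHA6 varied most between libraries, and they did so within genotypes. PCDHA11 had 5.24 and 2.98 CPM in homozygous, 12.3 and 3.28 in hemizygous and 9.76 and 3.50 in wild-type libraries, a 4.11-fold span. The 2 high libraries were hemizygous 1 and wild type 1, so the genotypes overlapped. PCDHA1 had 3.19 and 3.10 CPM in homozygous, 5.21 and 2.39 in hemizygous and 4.86 and 1.71 in wild-type libraries, and PCDHA6 had 8.64 and 6.01, 12.96 and 4.48 and 12.8 and 7.70 CPM in the same order. For both, hemizygous 1 and wild type 1 were again the highest libraries. The promoters of PCDHA1, PCDHA6 and PCDHA10 hold the alpha word, and that of PCDHA11 holds it only with 1 mismatch. The part of the word in this variation was not tested.

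The beta array was dominated by PCDHB5 and PCDHB2, single-exon genes with no shared part. PCDHB5 was at 40.7 and 36.1 CPM in homozygous, 51.7 and 38.9 in hemizygous and 46.6 and 39.3 in wild-type libraries and held 31.9% to 36.2% of the beta counts. PCDHB2 was at 26.9 and 22.7 CPM in homozygous, 31.03 and 24.4 in hemizygous and 28.98 and 27.04 in wild-type libraries, the homozygous libraries lying just below both wild-type ones. PCDHB16 had 2.58 and 1.92 CPM in homozygous, 7.20 and 2.16 in hemizygous and 3.91 and 2.07 in wild-type libraries. Its hemizygous library 1 stood above the other 5. PCDHB6 went the other way, with 0.771 and 1.21 CPM in homozygous, 0.391 and 1.42 in hemizygous and 0.771 and 1.23 in wild-type libraries. Here hemizygous 1 was the lowest, on 15 counts (exact Poisson 95% interval 8.40 to 24.7 counts, counting error only).

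PCDHGC3, the C-type gamma gene that in mice promotes dendrite branching through the Wnt scaffold Axin1, led the gamma array. It was at 14.7 and 11.00 CPM in homozygous, 17.9 and 14.97 in hemizygous and 18.7 and 17.7 in wild-type libraries. Both homozygous libraries were below the other 4. PCDHGA11, a variable gamma A gene, had 12.9 and 8.25 CPM in homozygous, 12.6 and 10.3 in hemizygous and 11.8 and 11.7 in wild-type libraries, which overlapped. PCDHGC4, needed in mice for the survival of neurons, had 3.24 and 2.19 CPM in homozygous, 3.75 and 2.75 in hemizygous and 3.01 and 3.15 in wild-type libraries, with no separation by genotype. PCDHGB2 varied most in the array (2.73-fold), at 2.29 and 1.502 CPM in homozygous, 3.31 and 1.21 in hemizygous and 1.93 and 1.25 in wild-type libraries, and library 1 was the higher one in each genotype.

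Summed over genes, the genotypes overlapped in every array. Alpha counts summed to 67.04 and 56.7 CPM in homozygous, 95.7 and 57.5 in hemizygous and 92.5 and 61.7 in wild-type libraries. The beta sums were 127.4 and 113.3 CPM in homozygous, 149.4 and 111.9 in hemizygous and 128.6 and 111.3 in wild-type libraries. The gamma sums were 102.6 and 79.8 CPM in homozygous, 103.4 and 80.4 in hemizygous and 91.3 and 84.6 in wild-type libraries. Library 1 was above library 2 in all 9 pairs. The log2 ratios of group means, homozygous over wild type, were -0.32 for alpha, 0.00 for beta and 0.05 for gamma. Leaving out 1 library at a time moved them between -0.58 and 0.00, -0.10 and 0.11, and -0.14 and 0.22. In bulk RNA, fewer cells using a promoter and less RNA per cell cannot be told apart.

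In how evenly the genes were used, both edited genotypes separated from wild type in the beta and gamma arrays, where their sums did not. The effective number of genes is the number of equally used genes that would give the observed evenness of counts (the exponential of the Shannon entropy of the shares). In the gamma array it was 15.3 and 16.3 in homozygous, 14.8 and 14.6 in hemizygous and 12.7 and 13.3 in wild-type libraries, out of 22 genes. Both edited genotypes lay above wild type without overlap, and homozygous above hemizygous. For beta, out of 14 genes, it was 6.81 and 6.96 in homozygous, 6.99 and 6.65 in hemizygous and 6.30 and 6.35 in wild-type libraries. Both edited genotypes were above wild type, and they overlapped each other. For alpha it was 11.4 and 11.5 in homozygous, 10.9 and 11.3 in hemizygous and 11.03 and 11.2 in wild-type libraries, a narrower range. Both homozygous libraries lay above all hemizygous and wild-type ones, which overlapped each other. These values are given as a description, with no test. The beta values include PCDHB17P and the gamma values PCDHGA2, both under 0.5 CPM before TMM scaling in both wild-type libraries. Every gene in the table exceeds 0.5 CPM in at least 3 libraries, so these 2 have a row only through edited libraries. PCDHB17P held 1.54% and 1.72% of beta counts in homozygous, 0.40% and 0.64% in hemizygous and 0.33% and 0.37% in wild-type libraries. The part of both genes in the evenness was not tested.

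**Figure D2:**
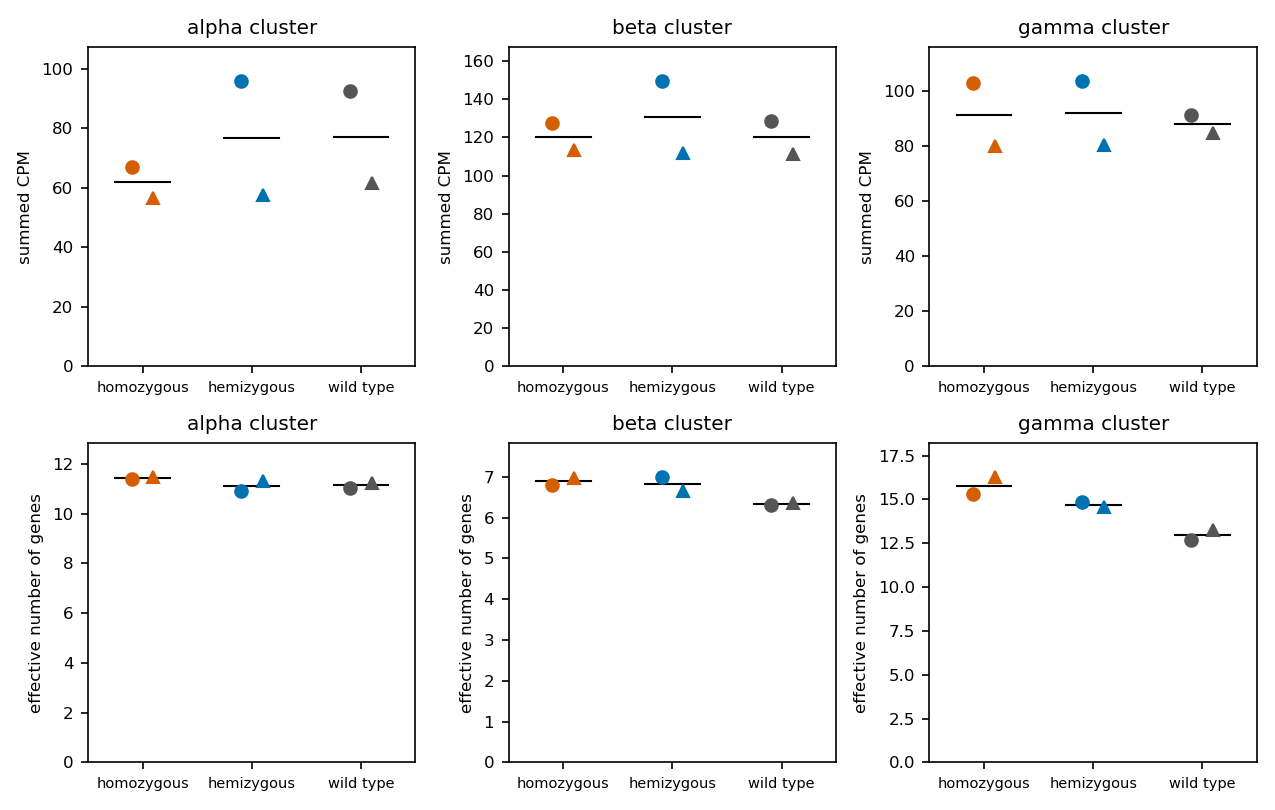
Upper row: summed CPM of the alpha, beta and gamma arrays in each library, with the group mean as a bar. Lower row: effective number of genes in each array. The gamma sums overlap between genotypes, while the gamma effective number is 14.6 or more in every edited library and 12.7 and 13.3 in wild type.

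Most of the genes whose homozygous and wild-type libraries did not overlap were in the gamma array, where variable genes of low level were higher and the leading gene PCDHGC3 was lower in homozygous cells, but no gene passed the main test. In edgeR's quasi-likelihood test over all 16199 genes 0 of the 50 genes passed an adjusted p of 0.05 (background 0%), and the lowest adjusted p among them was 1.00. At an unadjusted p under 0.05 there were 7 genes (background 2.69%): PCDHB17P, PCDHGA5, PCDHGB3, PCDHGA6, PCDHGA12 and PCDHGC5 higher and PCDHGC3 lower. DESeq2 called 1 gene, PCDHB17P (background 0.0617%), and limma-voom called 0. The libraries of the 2 genotypes did not overlap for 16 genes higher in homozygous cells (32%, background 14.2%) and 8 lower (16%, near the background of 13.6%). Of these, 12 higher and 3 lower were among the 22 gamma genes, 1 and 2 among the 14 alpha genes, and 3 and 3 among the 14 beta genes. The higher ones include PCDHGA2 (gamma) and PCDHB17P (beta), which have a row only through edited libraries. The gamma counts of 12 and 3 were the same under the other 2 ways of scaling libraries. The median log2 fold change was 0.41 over gamma, -0.24 over alpha and -0.05 over beta genes, against 0.00 over all genes. Leaving out homozygous library 1 brought the gamma median to 0.18, with 12 of 22 genes above 0. Without wild-type library 1 the alpha median became 0.06 and the beta median 0.14.

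PCDHB17P, a beta pseudogene at 141155996 to 141159061 on chromosome 5, had the largest difference. Its counts were 89 and 79 in homozygous, 23 and 38 in hemizygous and 22 and 16 in wild-type libraries, or 1.96 and 1.94 CPM in homozygous, 0.600 and 0.721 in hemizygous and 0.424 and 0.409 in wild-type libraries. Both homozygous libraries stood above the other 4, and both hemizygous ones above wild type. The log2 fold change of homozygous cells was 2.22 ± 0.30 (SE) against wild type and 1.55 ± 0.29 against hemizygous cells. Leaving out any 1 library kept the value against wild type between 2.21 and 2.25. DESeq2 gave an adjusted p of 0.0242, the lowest over the alternatives, whose adjusted p otherwise lay between 0.274 and 1.00. With the library number as a block, DESeq2 gave it no adjusted p. Beta genes are close copies of each other, so reads may be shared among them, and both wild-type libraries were under the 0.5 CPM that at least 3 libraries exceed for every gene in the table.

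Among gamma genes, PCDHGA6 and PCDHGB3, neighbouring variable genes at 141373914 to 141512979 and 141370264 to 141512979 (ends including the shared exons), stood out. PCDHGA6 was at 6.41 and 6.23 CPM in homozygous, 5.35 and 5.16 in hemizygous and 2.55 and 3.53 in wild-type libraries, so that all 4 edited libraries were above both wild-type ones. Its log2 fold change was 1.06 ± 0.24 in homozygous and 0.79 ± 0.24 in hemizygous cells. DESeq2 with library number as a block, chosen after the data were seen, called it in homozygous cells with an adjusted p of 0.0292, against 0.19997 to 1.00 in the other fits. That fit called 126 of 13686 genes (background 0.921%). PCDHGB3 had 2.80 and 2.93 CPM in homozygous, 2.32 and 1.52 in hemizygous and 1.08 and 1.36 in wild-type libraries, the genotypes being ordered without overlap. Its log2 fold change was 1.24 ± 0.32 in homozygous cells (edgeR adjusted p = 1.00).

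Other gamma genes followed in the same direction without passing. PCDHGA5 had 2.27 and 2.61 CPM in homozygous, 1.85 and 1.40 in hemizygous and 1.16 and 1.46 in wild-type libraries (log2 fold change 0.90 ± 0.30 in homozygous cells). PCDHGC5, the last C-type gene of the array, had 1.08 and 1.23 CPM in homozygous, 0.913 and 0.987 in hemizygous and 0.540 and 0.640 in wild-type libraries (0.97 ± 0.31). All 4 edited libraries were above wild type for PCDHGC5, whereas hemizygous and wild-type libraries overlapped for PCDHGA5. PCDHGA2 had 0.683 and 0.985 CPM in homozygous, 1.28 and 0.550 in hemizygous and 0.501 and 0.486 in wild-type libraries (0.75 ± 0.48), with both wild-type libraries the lowest. Before TMM scaling both were under 0.5 CPM, so that PCDHGA2, like PCDHB17P, has a row only because of its edited libraries, and its place among the genes without overlap was fixed by that. PCDHGA12, named after its values were seen, had 3.15 and 3.20 CPM in homozygous, 1.75 and 3.04 in hemizygous and 1.39 and 2.05 in wild-type libraries (0.89 ± 0.36). The pseudogene PCDHGB8P had 3.24 and 2.58 CPM in homozygous, 1.80 and 2.43 in hemizygous and 1.60 and 2.07 in wild-type libraries (0.67 ± 0.30), and its homozygous libraries were above the other 4.

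Lower in homozygous cells were PCDHGC3 and a few variable genes, in numbers near the share among all genes. Without overlap, 8 of the 50 genes were lower (16%) and 3 of the 22 gamma genes (13.6%), against 13.6% of all genes. The log2 fold change of PCDHGC3 was -0.50 ± 0.19 against wild type, between -0.73 and -0.31 with 1 library left out. PCDHA2 had 1.28 and 1.26 CPM in homozygous, 1.98 and 1.35 in hemizygous and 2.24 and 1.84 in wild-type libraries (-0.69 ± 0.31). PCDHGB1 had 0.969 and 0.615 CPM in homozygous, 1.62 and 0.664 in hemizygous and 1.504 and 0.972 in wild-type libraries (-0.65 ± 0.51). For PCDHA2 both homozygous libraries were below the other 4, whereas hemizygous values of PCDHGB1 spanned those of wild type. The higher homozygous value of PCDHGB1 (0.969 CPM) lay just under its lower wild-type value (0.972 CPM). PCDHB10 had 1.78 and 1.40 CPM in homozygous, 4.02 and 2.37 in hemizygous and 2.70 and 1.92 in wild-type libraries (-0.54 ± 0.36), also lowest in homozygous cells. By library number, 8 of 14 alpha genes were lower in the homozygous than in the wild-type library of both numbers (background 28.7%) and 2 were higher (background 27.0%), against 4 lower and 14 higher of 22 gamma genes.

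**Figure D3:**
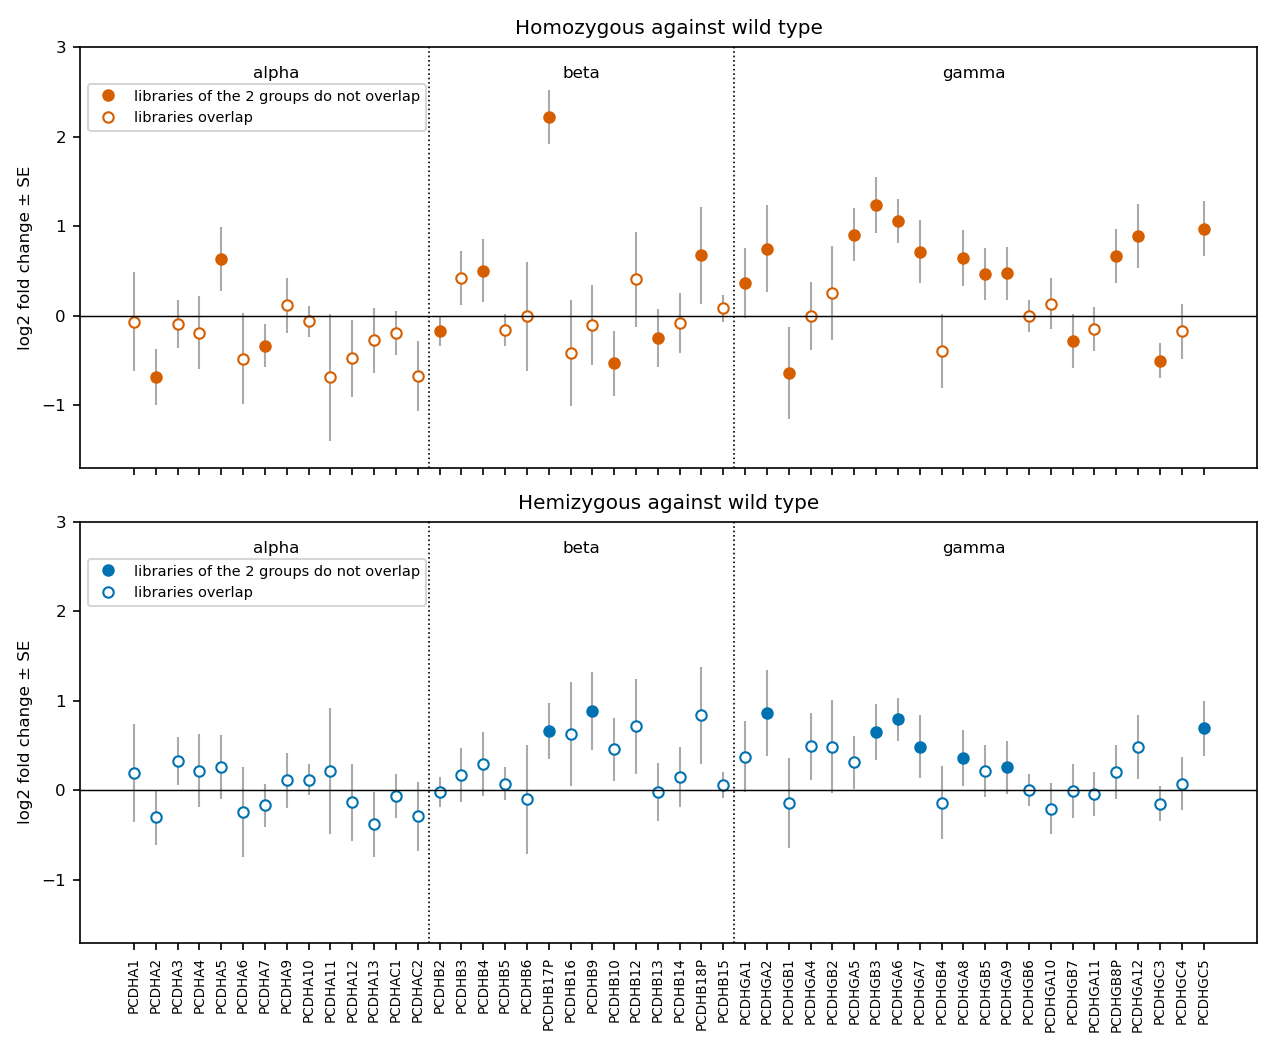
Log2 fold change against wild type with its standard error for each of the 50 genes in chromosome order, homozygous cells above and hemizygous cells below; filled points mark genes whose libraries do not overlap between the genotypes. In homozygous cells 12 of the 16 filled points above 0 are gamma genes, and the highest point is PCDHB17P at 2.22. PCDHB17P and PCDHGA2, both filled, have a row only through edited libraries.

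Fewer genes separated hemizygous cells from wild type, and with TMM scaling all of them were higher. The libraries did not overlap for 9 genes higher than in wild type (background 8.13%) and 0 lower (background 9.21%). They were PCDHB17P and PCDHB9 of the beta array and PCDHGA2, PCDHGB3, PCDHGA6, PCDHGA7, PCDHGA8, PCDHGA9 and PCDHGC5 of the gamma array, with no alpha gene, and PCDHB17P and PCDHGA2 are the genes that passed the table's floor only through edited libraries. Scaling by column totals gave 10 higher and 1 lower, a gamma gene. Compared within library numbers, 23 of the 50 were higher in hemizygous cells both times (background 26.7%), 5 of them alpha genes, and 4 were lower (background 28.5%), namely PCDHA2, PCDHAC2, PCDHGA10 and PCDHGC3. edgeR called 0 of the 50 at an adjusted p of 0.05 (background 0%), 1 at an unadjusted p under 0.05 (PCDHGA6, background 0.870%), and DESeq2 (background 0.0432%) and limma-voom called 0. The median log2 fold change was 0.29 over gamma, 0.24 over beta and 0.02 over alpha genes, against 0.00 over all genes. Without hemizygous library 1 these medians were 0.05, -0.12 and -0.30. PCDHB9 had 1.43 and 0.835 CPM in hemizygous and 0.694 and 0.512 in wild-type libraries (0.89 ± 0.43), and 0.705 and 0.418 in homozygous ones, which overlapped wild type. The pseudogene PCDHB18P had 1.28 and 1.16 CPM in homozygous, 2.11 and 0.664 in hemizygous and 0.829 and 0.691 in wild-type libraries, where hemizygous 2 was the lowest of all 6. Both edited genotypes were compared with the same wild-type libraries, so their differences share whatever is particular to those libraries.

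Set against hemizygous cells, homozygous cells had 9 higher (18%, background 11.0%) and 7 lower genes (14%, background 10.4%) without overlap. edgeR called 0 genes of the 50 (background 0%), and 2 were at an unadjusted p under 0.05 (background 0.765%), PCDHB17P higher and PCDHB10 lower, with 0 in DESeq2 (background 0.0617%). Higher were PCDHB17P and 8 gamma genes, with log2 fold changes of 0.59 ± 0.29 for PCDHGA5 and 0.58 ± 0.31 for PCDHGB3. With DESeq2 size factors 7 gamma genes were higher without overlap, and with scaling by column totals 6. Lower were PCDHB10, PCDHB9, PCDHGC3 (-0.36 ± 0.19) and the alpha genes PCDHA2, PCDHA3, PCDHA7 and PCDHA10. PCDHA3 had 6.10 and 6.62 CPM in homozygous and 10.5 and 6.66 in hemizygous libraries, with 7.46 and 6.11 in wild type. Without hemizygous library 1 the median over alpha genes was 0.04, against -0.26 with all libraries, and that over beta genes was 0.06, against -0.20.

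The gamma genes that were higher in homozygous cells were mostly those of low level. Over the 11 gamma genes below the array's median level of 2.14 CPM the median log2 fold change of homozygous over wild-type cells was 0.64, and 8 were higher and 1 lower without overlap, against 14.2% and 13.6% of all genes. PCDHGA2, which has a row only through edited libraries, is 1 of the 8. Over the 11 above it the median was -0.01, and 4 were higher and 2 lower without overlap, the lower ones near the share among all genes. By type, the 11 gamma A genes had a median of 0.64, the 8 gamma B genes 0.12 and the 3 gamma C genes -0.18. Gamma A genes summed to 47.5 and 37.3 CPM in homozygous, 41.5 and 34.4 in hemizygous and 34.8 and 33.6 in wild-type libraries. Gamma C genes summed to 19.0 and 14.4 CPM in homozygous, 22.6 and 18.7 in hemizygous and 22.2 and 21.5 in wild-type libraries. Shares of an array do not depend on library scaling. PCDHGC3 held 14.3% and 13.8% of gamma counts in homozygous, 17.3% and 18.6% in hemizygous and 20.4% and 20.9% in wild-type libraries, and PCDHGA6 held 6.25% and 7.80%, 5.17% and 6.42% and 2.79% and 4.17% in the same order. For both genes each genotype pair was without overlap except homozygous and hemizygous cells for PCDHGA6.

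**Figure D4:**
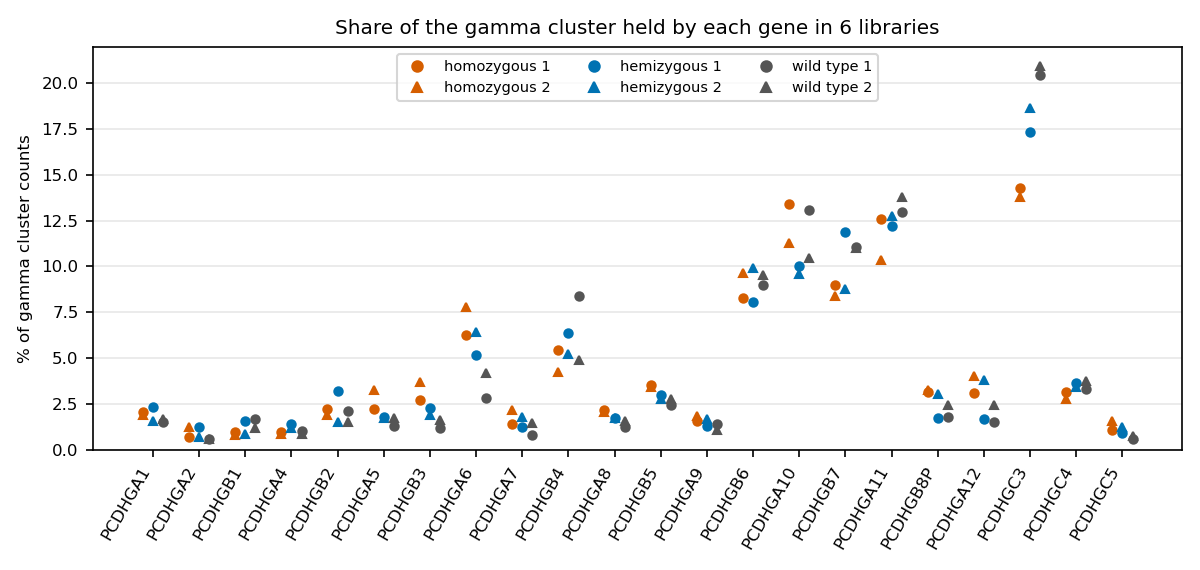
Share of the gamma array's CPM held by each gene, in percent, in each library, with genes in chromosome order. PCDHGC3 holds 14.3% and 13.8% in homozygous and 20.4% and 20.9% in wild-type libraries, while PCDHGA6 holds 6.25% and 7.80% in homozygous and 2.79% and 4.17% in wild-type libraries.

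Libraries of the same number also shared a pattern across genotypes, and most of the 50 genes were higher in library 1. Library 1 was above library 2 for 36 of the 50 genes in homozygous, 40 in hemizygous and 36 in wild-type cells, against 51.1%, 49.3% and 50.8% of all genes. In all 3 genotypes at once this held for 28 genes (56.0%), against 29.9% of all genes. The reverse held for 6 genes (12%, against 28.3% of all genes): PCDHA5, PCDHB4, PCDHB6, PCDHGA7, PCDHGA12 and PCDHGC5. Differences above 2-fold were few in homozygous (0) and wild-type cells (2) and more frequent in hemizygous cells, with 11 genes higher in library 1 and 1, PCDHB6, higher in library 2. What the library numbers mark is not stated, and its part in the differences between genotypes was not tested.

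**Figure D5:**
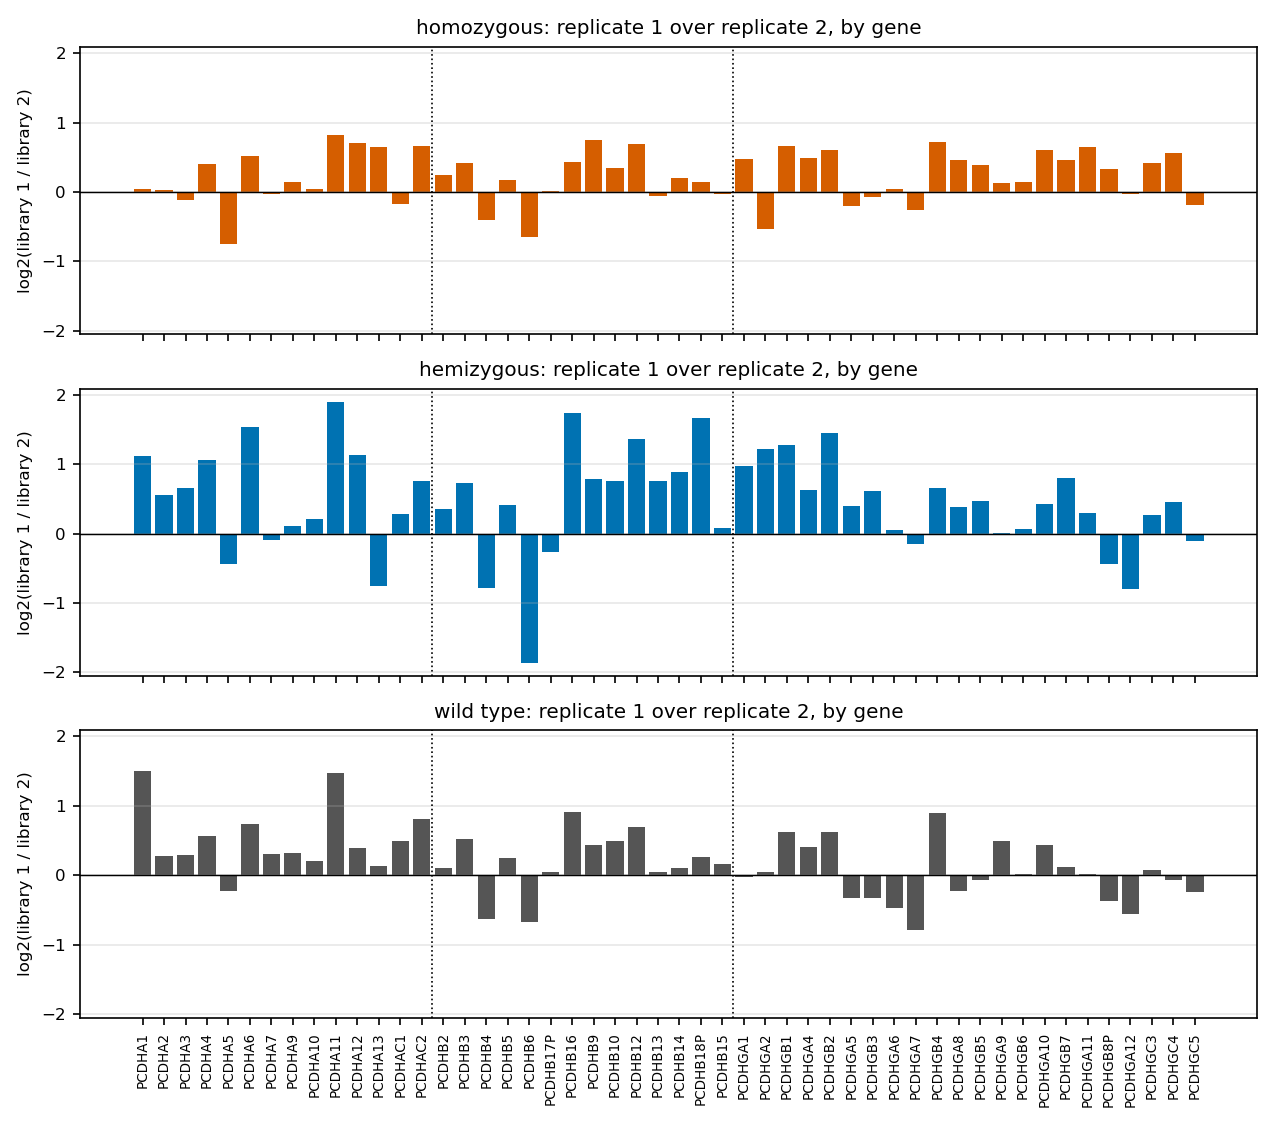
Log2 ratio of library 1 over library 2 for each of the 50 genes in chromosome order, in homozygous, hemizygous and wild-type cells. Most bars point up in all 3 panels, and PCDHA11 is 3.73-fold higher in library 1 in hemizygous and 2.78-fold in wild-type cells.

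Measured over all 6 libraries, the ratio of the highest to the lowest library had a median of 2.06 over the 50 genes, from 1.10 for PCDHGB6 to 4.79 for PCDHB17P. It was above 2 for 27 of 50 (54.0%), against a median of 1.44 and 16.2% over all genes. The 50 genes also have lower levels, with a median of 2.86 CPM against 19.1 CPM, and the part of the level in this was not tested. PCDHB15 was the steadiest of its array, at 16.2 and 16.6 CPM in homozygous, 16.6 and 15.7 in hemizygous and 16.4 and 14.7 in wild-type libraries. The share of counts that would have to move between genes to turn 1 library's usage into another's was 8.23% to 12.5% for the 3 pairs of 1 genotype. It was 6.33% to 11.2% for the 6 pairs of different genotype and the same number, and 9.56% to 14.0% for the other 6. The closest pair was hemizygous 2 and wild type 2 (6.33%) and the farthest homozygous 2 and wild type 1 (14.0%).

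The factors that act on these promoters showed no difference that passed. Of 28 listed regulators 27 were measured, and edgeR called 0 in each comparison, as it did over all 16199 genes (background 0%). Their median log2 fold change was -0.05 in homozygous and 0.03 in hemizygous cells. CTCF, which binds the promoters and the enhancers, was at 105.4 and 84.7 CPM in homozygous, 104.3 and 90.8 in hemizygous and 98.99 and 97.4 in wild-type libraries. The cohesin subunit RAD21 was at 393.9 and 330.5 CPM in homozygous, 372.2 and 360.2 in hemizygous and 363.0 and 345.3 in wild-type libraries, and the methyltransferase DNMT3B at 2214 and 2313, 2959 and 2328 and 2453 and 2157 CPM in the same order. SMCHD1, a chromatin protein that in mice keeps these arrays silenced, was at 80.04 and 68.4 CPM in homozygous, 126.8 and 76.1 in hemizygous and 123.8 and 85.2 in wild-type libraries (-0.49 ± 0.28 in homozygous cells). Both homozygous values were below wild type, and they overlapped hemizygous cells, and the part of SMCHD1 in the results above was not tested. TET2, a methylcytosine dioxygenase, was low, at 1.30 and 0.886 CPM in homozygous, 0.965 and 0.721 in hemizygous and 1.29 and 1.25 in wild-type libraries.

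Intracellular partners, other protocadherins and neighbouring genes likewise gave 0 calls in edgeR, as did the whole table (background 0%). The 19 partners had medians of -0.11 in homozygous and -0.03 in hemizygous cells, among them the kinase gene PTK2B (-0.40 ± 0.22 in homozygous cells), whose product is inhibited by protocadherins in mice, and CYFIP1 of the WAVE complex (-0.42 ± 0.46). The 8 measured non-clustered protocadherins of 12 listed had medians of -0.19 in homozygous and -0.08 in hemizygous cells. PCDH18 was at 34.96 and 34.04 CPM in homozygous, 56.3 and 36.7 in hemizygous and 57.1 and 42.3 in wild-type libraries, with both homozygous values below the other 4, and PCDH9 had 1.32 and 1.08, 1.90 and 0.759 and 1.20 and 0.716 CPM in the same order. Of 25 listed genes near the arrays 21 were measured, with medians of 0.11 in homozygous and 0.02 in hemizygous cells. TAF7, a general transcription factor gene between the beta and gamma arrays, was at 170.0 and 171.6 CPM in homozygous, 167.5 and 165.7 in hemizygous and 152.8 and 143.0 in wild-type libraries (0.21 ± 0.12 in homozygous cells), with both edited genotypes above wild type. RNF14, a ubiquitin ligase gene, had a log2 fold change of -0.34 ± 0.22 in homozygous cells.

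Transcripts inside the arrays on the other strand, which in human neurons arise from alpha promoters, matter here because the libraries carry no strand. ENSG00000279726, annotated as antisense within the alpha array (minus strand, 140788457 to 140822193), had 3.06 and 2.88 CPM in homozygous, 2.03 and 3.07 in hemizygous and 2.01 and 2.97 in wild-type libraries, overlapping between genotypes. ENSG00000278946 (140867513 to 140867959) had 1.06 and 0.665, 0.834 and 0.721 and 0.598 and 0.588 CPM in the same order. Both edited genotypes were above wild type for it (0.54 ± 0.36 in homozygous cells), at levels near the 0.5 CPM floor. ENSG00000278915, also antisense there, had 1.23 and 0.443, 0.756 and 0.645 and 0.598 and 1.02 CPM, overlapping between genotypes. Reads from these transcripts and from alpha genes they overlap cannot be told apart. Of 11 neuron markers 10 were measured, with summed levels of 281.7 and 240.5 CPM in homozygous, 320.7 and 255.6 in hemizygous and 275.9 and 211.1 in wild-type libraries and no row for ELAVL4. GAP43 had 42.7 and 46.6 CPM in homozygous, 43.9 and 39.2 in hemizygous and 31.97 and 24.1 in wild-type libraries, and DCX 4.01 and 4.65, 5.58 and 5.58 and 3.28 and 3.30 CPM in the same order. Both were higher in every edited library than in wild type, as were several gamma genes, but the list did not move together. In homozygous against wild-type cells 6 of the 10 were above 0, with a median log2 fold change of 0.09, and SNAP25 was at -0.75 ± 0.30, MAP2 at -0.42 ± 0.27, NEFL at -0.33 ± 0.36 and RBFOX3 at -0.16 ± 0.17. In hemizygous cells 6 of the 10 were above 0, with a median of 0.17. The part of these genes in the gamma result was not tested. Fibroblast markers, 4 of 8 measured, summed to 629.1 and 676.3 CPM in homozygous, 823.2 and 705.5 in hemizygous and 861.1 and 788.6 in wild-type libraries. COL3A1, LUM, DCN and TWIST1 had no row, and THY1 made up a large part of the sum. The sum was lowest in homozygous cells, and the part of these markers in the lower alpha values was not tested. PDGFRB was at 7.27 and 9.13 CPM in homozygous, 15.1 and 7.82 in hemizygous and 16.3 and 13.2 in wild-type libraries, and THY1 at 332.6 and 394.4, 334.4 and 379.2 and 420.4 and 468.3 CPM in the same order. Of 5 endoderm and 5 trophoblast markers 1 each had a row, CXCR4 at no more than 2.16 CPM and KRT7 at no more than 10.5 CPM. The 5 measured neural ectoderm markers summed to 449.7 and 439.5 CPM in homozygous, 596.1 and 499.9 in hemizygous and 527.8 and 483.9 in wild-type libraries, a sum made up mostly of NES. ZIC1 and FABP7 were higher in every edited library than in wild type, although edgeR called neither. ZIC1, a transcription factor of neural ectoderm, had 28.2 and 28.01 CPM in homozygous, 41.01 and 58.9 in hemizygous and 17.9 and 16.3 in wild-type libraries, with log2 fold changes of 0.71 ± 0.19 in homozygous and 1.54 ± 0.20 in hemizygous cells. FABP7, a fatty acid binding protein of neural progenitors, had 5.62 and 8.15 CPM in homozygous, 4.22 and 5.81 in hemizygous and 2.99 and 2.99 in wild-type libraries (1.20 ± 0.29 in homozygous and 0.75 ± 0.28 in hemizygous cells). Several gamma genes were also above wild type in every edited library, but ZIC1 was highest in hemizygous cells. Of the 5 markers 2 were above 0 in homozygous cells, with a median log2 fold change of -0.16. In hemizygous cells 4 were above 0, with a median of 0.08. The part of ZIC1 and FABP7 in the gamma result was not tested.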

How the data were processed

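RNA sequencing libraries were made from total RNA with an unstranded kit, per the labels' protocols, from 2 homozygous, 2 hemizygous and 2 wild-type samples. The authors deposited whole-number read counts per gene. Per the submitters' processing notes, cutadapt and HISAT2 were used with the hg38 genome. Which program counted reads, on which annotation and how it treated shared exons, is not given in the sources used here. Every gene in the table exceeds 0.5 CPM in at least 3 samples, so weaker genes were not analysed here. The 9 clustered protocadherins without a row were not analysed either, and why they have none is not given. Because the deposited counts lack molecular identifiers, intervals cover counting error only, at totals of 38164848 to 52924532 counts.

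Counts were scaled by TMM and fitted over all 6 samples and 16199 genes with edgeR 4.0.16 (quasi-likelihood test, filterByExpr, which removed 0 genes, and Benjamini-Hochberg adjustment over all genes, threshold 0.05), in R 4.3.3. With 3 residual degrees of freedom, the spread is poorly known. The fits were run on simulated data, where recovery of most large changes was required of edgeR only at a smaller spread than estimated. Passing this does not show that changes could be called at the spread of these data. Alternatives were DESeq2 1.42.0, limma-voom (limma 3.58.1), DESeq2 size factors or column totals, a mean of at least 1 CPM, only the 2 groups compared, the replicate number as a block, each sample left out in turn, and all-exon lengths. Gene positions and lengths come from GENCODE release 29, promoters from RefSeq. Sums were made in Python 3.11.15 (pandas 2.3.3) and figures in matplotlib 3.10.9.

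Same-numbered samples deviated together from their group means. The correlations over all genes were 0.391 (homozygous and wild type), 0.784 (hemizygous and wild type) and 0.523 (homozygous and hemizygous). What a number marks is not stated in the labels, and the main fit left the numbers out. They paired the samples only in the fits with a block and in the comparisons by library number. The genes named are those of highest level and widest span in each array, the C-type genes, the pseudogenes, the 3 largest differences without overlap in each direction and comparison, genes called under any setting and, from related lists, the 2 that differed most. The members and lists were chosen with earlier results of these data known.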

Additional observations from a re-analysis of the deposited data

How the results depend on the processing

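With the main edgeR fit 0 genes of the whole table passed in any of the 3 comparisons. For homozygous against wild type, DESeq2 called 10 genes and DESeq2 with the replicate block, an alternative chosen after seeing the data, 126, while leaving out 1 library gave 0 to 1. For hemizygous against wild type the numbers were 7 with DESeq2, 1 with the replicate block in edgeR, 23 with the block in DESeq2 and 0 to 2 with 1 library left out. For homozygous against hemizygous they were 10 with DESeq2, 1 with the replicate block in edgeR, 24 with the block in DESeq2 and 0 to 3 with 1 library left out. Of the clustered protocadherins, DESeq2 called 1 (PCDHB17P) and DESeq2 with the replicate block 1 (PCDHGA6) in homozygous against wild-type cells. The block thus also ended the DESeq2 call of PCDHB17P, which it left without an adjusted p. Leaving out any library called 0 of them in edgeR. The causes were not tested. The log2 fold changes of 27 named genes changed sign in 64 of 1122 alternative values, and 2 passed under an alternative. Of their 81 log2 fold changes over the comparisons, 40 changed sign under at least 1 alternative. With all exon bases as the length, levels per kilobase differed for 45 of the 50 genes, and for 15 of the 27 named ones by more than 1 SD between libraries of a genotype (pooled over genotypes). Counts as low as 15 per library limit the depth for single genes, and 2 libraries a genotype limit the tests.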
